A study of Bos taurus and Sus scrofa with 10 samples.

Results

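The genes described here carry a symbol made of ZNF and a number, the naming root of zinc finger proteins, and were read in cow (Bos taurus) and in pig (Sus scrofa), each from the oocyte to the blastocyst. A row of either species' table was taken when its symbol had that form and its level reached 10 reads per 1000000 reads of the library (RPM) in at least 1 stage. ZNF445 was left out by the same rule, and of repeated symbols the row with the highest mean was kept. This gave 125 members in cow, of 227 such symbols and 22845 rows, and 148 members in pig, of 237 symbols and 21867 rows. Together they cover 186 symbols, of which 87 were members in both species. Of the symbols left out for level, 86 in cow and 75 in pig had reads but stayed under 10 RPM, and 16 and 14 had 0 reads in every library. Since level chose the members, the fact that they are expressed is not a result.

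Total RNA came from 5 stages: the oocyte, embryos of 2-4 cells, embryos of 8-16 cells, the morula, which is a compact ball of cells, and the blastocyst, which has formed a fluid-filled cavity. Each stage of each species had 1 library, 10 in all, so differences between stages have no replicate check and none is tested. No treatment, genotype or strain is labelled. The number of oocytes or embryos pooled per library, and whether embryos grew in the animal or in culture, are not given in the sources used here. An oocyte carries RNA stored during its growth, and in whole embryos fewer cells of a type and less RNA per cell cannot be told apart.

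Most ZNF genes encode proteins with tandem C2H2 zinc fingers, each finger holding a zinc ion between a pair of cysteines and a pair of histidines and reading a few bases of DNA. The largest subgroup also carries a KRAB domain, which recruits the corepressor TRIM28 and through it the histone methyltransferase SETDB1, and many of these proteins bind transposable elements. They multiplied by tandem duplication and lie in clusters, so cow and pig genes that share a symbol are not always simple counterparts. Some ZNF proteins do other work, such as RNA processing, ribosome maturation or spindle assembly.

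Read totals ranged from 3899291 to 14182046 in cow, the highest in the blastocyst library, and from 3002751 to 4138616 in pig. Brackets give 95% Wilson intervals from whole read counts. These and the floor of 3 reads, between 0.212 and 0.999 RPM, cover counting error only, since the libraries were amplified and no molecular identifiers are described. The mitochondrial share of reads was 4.40% in the oocyte and 30.2% in the blastocyst library of cow, and 6.06% and 18.6% in those of pig. RPM values of other genes are relative to that share. All 11 oocyte marker genes measured in cow had reads in the oocyte library and 10 of them had 0 reads in the blastocyst library; in pig 11 had reads in the oocyte library and 6 were at 0 in the blastocyst library. The 11 blastocyst markers in cow and 12 in pig all had reads in the blastocyst libraries. Relative to the oocyte, 9 of the cow and 11 of the pig markers were higher there by 2 or more in log2(RPM + 1). ATP1B1, whose span overlaps another row in both species, went the other way. Its cow oocyte value was 105 RPM, against 5.99 RPM in the blastocyst, and the matching pig values were 14.2 and 6.17 RPM. Cow TFAP2A reached only 4.09 RPM in the blastocyst, a change of 1.66. Cumulus cell markers summed to between 44.7 and 181 RPM over 11 genes in the cow libraries, highest in the oocyte, where 2 were at 0, and to between 108 and 349 RPM over 8 genes in pig, highest in the morula, where 4 were at 0. VCAN alone held 338 of the 349 RPM in the pig morula and 116 of the 181 RPM in the cow oocyte. The highest of the other markers were FSHR in the cow oocyte, with 37.3 RPM, and GREM1 in the pig oocyte, with 17.5 RPM. In the pig oocyte FSHR had 11.3 RPM, CD44 and PTX3 had 1 read each and 2 markers were at 0. The part of cumulus cells in the ZNF values was not tested.

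The summed level of the members was lowest at the blastocyst in both species. In cow the 125 members summed to 6654 RPM in the oocyte, 7002 at the 2-4 cell stage, 7267 at the 8-16 cell stage, 8592 in the morula and 3613 in the blastocyst. In pig the 148 members summed to 7426, 6802, 6976, 8069 and 4874 RPM in the same order. Both sums were highest in the morula library, which no longer held once the top 3 members of each library were left out. Scaled to reads in genes outside the mitochondrial chromosome, the sums were 13734 RPM in the cow morula and 7025 RPM in the cow blastocyst, and 11134 and 6578 RPM in pig. ZNF638, a nuclear protein that binds nucleic acid and works with the HUSH silencing complex, had the highest mean RPM over the 5 libraries of any member in both species. It made up 22.2% of the cow sum at the 8-16 cell stage and 19.8% of the pig sum at the blastocyst. Without the 3 members with the most reads in each library, the cow sums were 4314, 5044, 4872, 4903 and 2631 RPM in stage order, highest at the 2-4 cell stage. The pig sums were then 6153, 5590, 5810, 5946 and 3202 RPM, highest in the oocyte. The blastocyst stayed the lowest of each series. The 3 members left out differ between libraries, so the reduced sums do not cover the same genes. These sums follow reads, which also depend on transcript length, and do not rank genes by transcript number.

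Changes are differences in log2(RPM + 1), and a member is counted as higher or lower past a difference of 2, which is 4-fold on that scale. From oocyte to blastocyst, members fell more often than they rose in both species. In cow 33 of 125 members (26.4%) were lower and 19 (15.2%) higher, where 21.8% of all 9499 genes of 10 RPM or more in a stage were lower and 23.9% higher. In pig 49 of 148 (33.1%) were lower and 25 (16.9%) higher, against 22.2% lower and 28.7% higher among 9722 genes. With reads scaled to genes outside the mitochondrial chromosome the cow split was 30 lower and 25 higher, and the pig split 47 and 25. The median change was -0.50 for the members and 0.00 for all such genes in cow, and -0.60 and 0.26 in pig. In both species the median of the members lay below that of all genes in the main setting and each of the 11 alternatives tried for this interval. Under that scaling the median of all genes moved up by 0.38 in cow and 0.11 in pig, and with median scaling it moved by -0.13 and -0.26. Under the first of these 2 scalings the members' median minus that of all genes was -0.48 in cow and -0.91 in pig.

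**Figure D1:**
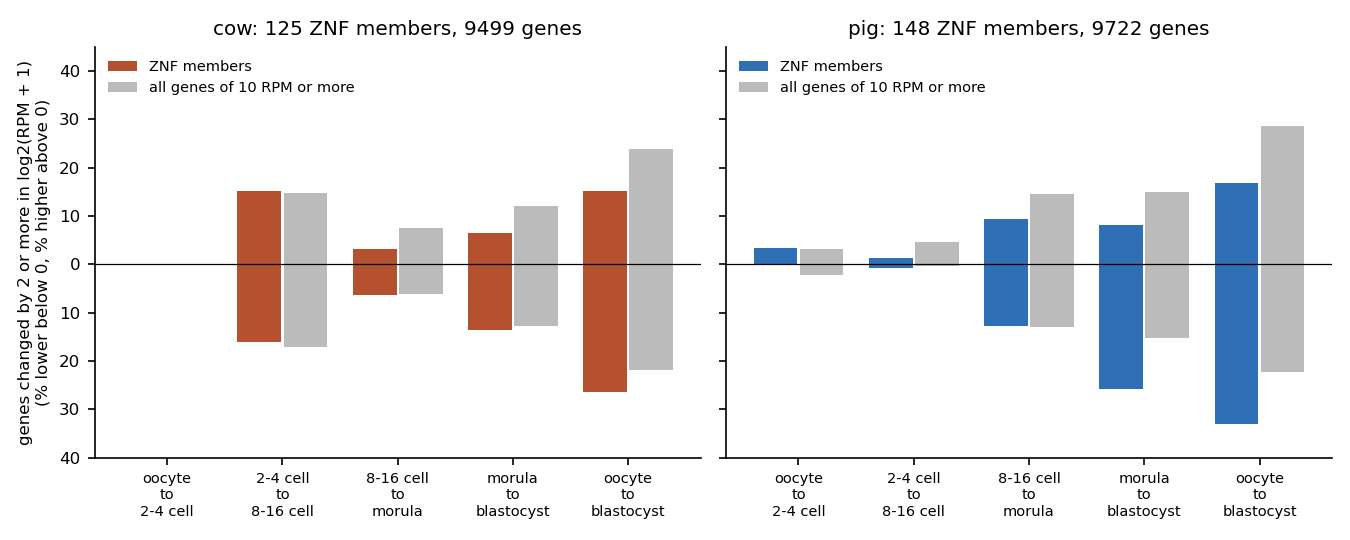
Share of ZNF members (coloured bars) and of all genes of 10 RPM or more in a stage (grey bars) that changed by 2 or more in log2(RPM + 1), with the percent higher above 0 and the percent lower below it, for each interval in cow and pig; 1 library per stage. In the last interval of each panel, oocyte to blastocyst, 26.4% of the cow members and 33.1% of the pig members were lower.

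The steps at which members changed differed between the species' tables, as they did for all genes. From the cow oocyte to the 2-4 cell embryo 0 of 125 members were higher and 0 lower by 2 or more, against 0.147% and 0.158% of all genes, and at a threshold of 1 it was 11 members (8.8%) against 10.5% of all genes. At the second step, into the 8-16 cell stage, 19 rose and 20 fell, 15.2% and 16.0%, against 14.7% and 17% of all genes. With median scaling this split was 21 higher and 13 lower. At the next step, into the morula, 4 rose and 8 fell (background 7.51% and 6.16%), and at the last, into the blastocyst, 8 rose and 17 fell (background 12.1% and 12.8%). With reads scaled to genes outside the mitochondrial chromosome the last split was 11 higher and 13 lower. Of the 33 members lower at the blastocyst than in the oocyte, 17 (51.5%) had their largest fall between the 2-4 cell and 8-16 cell stages, 7 (21.2%) at the next step and 9 (27.3%) at the last. Of all 2071 genes lower at the blastocyst, 45.6%, 18.2% and 35.3% had their largest fall at these steps. Of the 19 higher members 13 (68.4%) had their largest rise between the 2-4 cell and 8-16 cell stages, where 38.5% of all 2273 higher genes had theirs.

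In pig few members changed before the 8-16 cell stage, and few of all genes did. From the oocyte to the 2-4 cell embryo 5 of 148 members rose and 0 fell (background 3.1% and 2.29%), and at the next step 2 rose and 1 fell (background 4.69% and 0.329%). With median scaling the first step gave 8 higher and 0 lower and the second 1 higher and 1 lower, and with quantile normalisation the second gave 1 higher and 2 lower. Into the morula 14 rose and 19 fell (background 14.5% and 12.9%), or 9 and 23 with median scaling. Into the blastocyst 12 rose and 38 fell, 8.11% and 25.7% of the members, against 15% and 15.3% of all genes. Their median change at that step was -0.96, and that of all genes -0.16. Of the 49 members lower at the pig blastocyst than in the oocyte, 30 (61.2%) had their largest fall at this last step and 17 (34.7%) at the step before, against 47.5% and 46.5% of all 2157 lower genes.

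**Figure D2:**
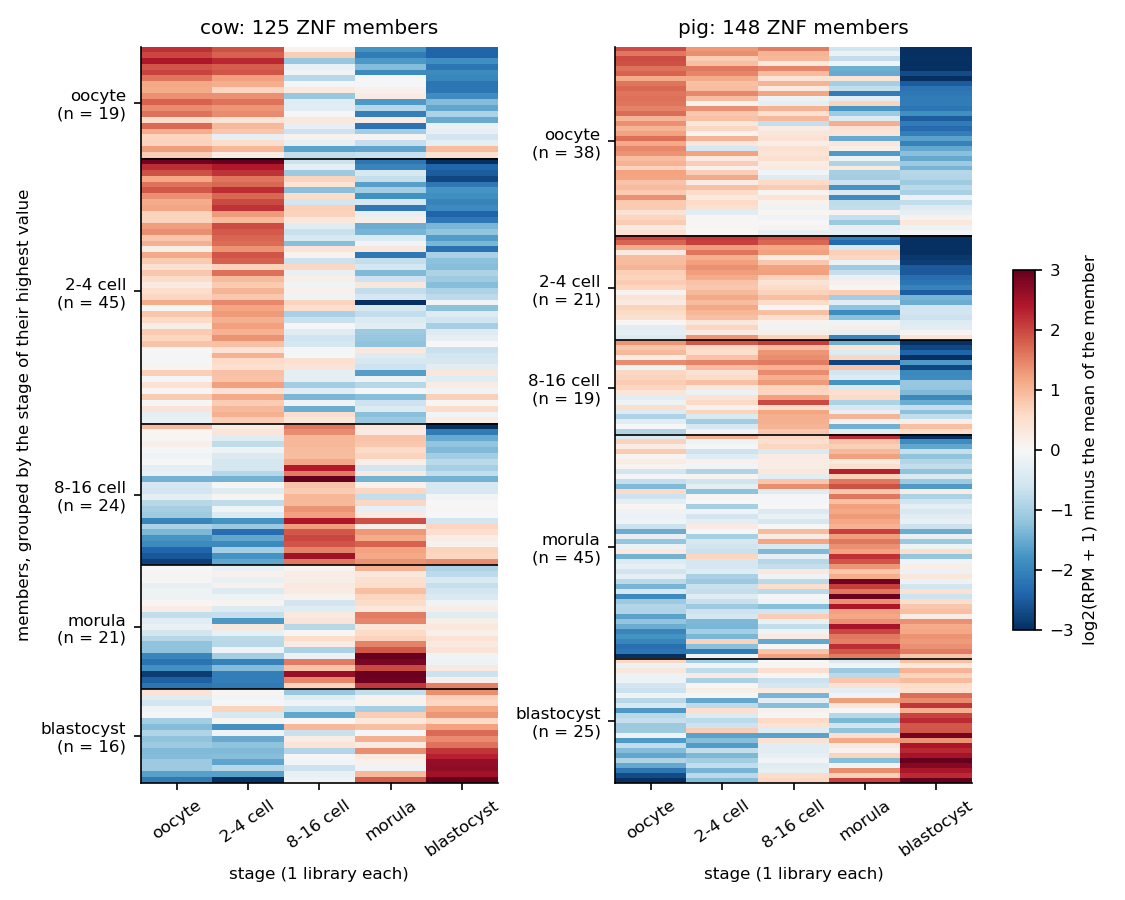
Level of each ZNF member at each stage, as log2(RPM + 1) minus the member's own mean over the 5 stages (colours, from -3 or below to 3 or above), in cow (125 rows) and pig (148 rows), with rows grouped by the stage of the highest value; 1 library per stage. Most of the 19 and 45 cow members with an early peak lose their red colour by the 8-16 cell column, while most of the 38 and 21 pig members with an early peak keep a pale red there and are darkest blue at the blastocyst.

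The stage of the highest value was spread over the course in both species. In cow 19 members peaked in the oocyte, 45 at the 2-4 cell stage, 24 at the 8-16 cell stage, 21 in the morula and 16 in the blastocyst. Among all cow genes of 10 RPM or more these stages held 12.3%, 27.7%, 15.2%, 18.3% and 26.4%, against 15.2%, 36.0%, 19.2%, 16.8% and 12.8% of the members. In pig 38 members peaked in the oocyte, 21 at the 2-4 cell stage, 19 at the 8-16 cell stage, 45 in the morula and 25 in the blastocyst. These are 25.7%, 14.2%, 12.8%, 30.4% and 16.9% of the members, where all pig genes gave 20.6%, 9.49%, 10.3%, 25.5% and 34.1%. The blastocyst share of the members was below that of all genes in both species. A peak shared between neighbouring libraries of like level moves with scaling: with median scaling 43 pig members peaked at the 2-4 cell stage and 30 cow members in the oocyte.

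The members that fell furthest in cow were high in the oocyte and 2-4 cell libraries and low from the morula on. ZNF2 (chromosome 11, 1953347 to 1958756) had 83.0 RPM in the oocyte, 93.3 at the 2-4 cell stage, 6.26 at the 8-16 cell stage, 1.54 in the morula and 0.282 in the blastocyst [0.110 to 0.725]. It was 294-fold lower at the blastocyst than in the oocyte, with only 4 reads behind the last value. ZNF184 (chromosome 23, 30960005 to 30980070) went through 182, 149, 41.4, 10.5 and 6.49 RPM, a 28.0-fold fall spread over several steps. ZNF323, a symbol since replaced by ZSCAN31, a gene with a SCAN domain, had 101, 116, 17.3, 4.62 and 3.24 RPM. ZNF618, a partner of the methylcytosine reader UHRF2, stood at 77.3, 65.3 and 31.7 RPM up to the 8-16 cell stage and at 3.59 and 2.68 RPM afterwards. ZNF713 had 20.3 RPM in the oocyte and 0 reads in the blastocyst, at least 95.9-fold lower. At the step to the 8-16 cell stage ZNF2 and ZNF664 fell most. ZNF664 went from 53.2 RPM [46.8 to 60.4] to 3.87 RPM [2.53 to 5.91], 13.8-fold lower, and stayed between 2.40 and 4.62 RPM after that.

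The members that rose furthest over the whole cow course were near or below the floor in the oocyte. ZNF496, which binds the histone methyltransferase NSD1, had 0.811 RPM in the oocyte (4 reads), 0 reads at the 2-4 cell stage, then 6.26, 26.4 and 81.4 RPM, a 100.3-fold rise to the blastocyst. ZNF331 and ZNF740 had 0 reads in the cow oocyte and 17.4 and 16.8 RPM in the blastocyst, at least 28.6-fold and 27.6-fold higher. ZNF740 overlaps CSAD on the other strand, whose level moved from 1.01 RPM in the oocyte to 11.07 RPM in the blastocyst, and whether counting used strand is not stated, so its reads are uncertain. ZNF827, which brings the NuRD complex to telomeres, had 2 reads in the oocyte, 3 at the 2-4 cell stage, 0.920 and 1.80 RPM at the next stages and 18.1 RPM [16.0 to 20.4] in the blastocyst. Its span also overlaps a row on the other strand, which had 0 reads in all cow libraries. ZNF793 had 2 reads in the oocyte, 0 at the 2-4 cell stage, 1.84 and 2.31 RPM after that and 17.8 RPM in the blastocyst, 7.70 times its next highest library. ZNF331 had reached its level by the 8-16 cell stage, with 19.9 RPM there, while the other 4 were highest in the blastocyst library.

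A second cow group rose at the 8-16 cell stage or morula and dropped again by the blastocyst. A middle stage lay 2 or more above both ends for 7 members, 5.6%, where 7.58% of all genes did so. They were ZNF41, ZNF148, ZNF394, ZNF407, ZNF608, ZNF609 and ZNF711. ZNF41 (chromosome X, 91031761 to 91044478) had 724 reads, 133 RPM [124 to 143], at the 8-16 cell stage and 0 reads in each of the other 4 cow libraries. It was at least 197-fold higher than at the 2-4 cell stage and at least 173-fold higher than in the morula. This pattern rests on 1 library. ZNF608 had 5.27, 9.69, 277, 343 and 28.1 RPM, a 28.6-fold rise to the 8-16 cell stage and a 12.2-fold drop to the blastocyst. Its paralogue ZNF609 had 30.8, 60.4, 108, 1191 and 114 RPM, so that the morula library stood 10.4-fold above the next one. The row that overlaps ZNF609 on the other strand had at most 2.82 RPM. ZNF394 was highest at the 8-16 cell stage, with 124 RPM. The row over ZNF394 on the other strand had 253 RPM there, also the highest value of that row. The reads of ZNF394 are therefore uncertain. ZNF711, an X-linked partner of the histone demethylase PHF8, had 24.9 RPM [21.0 to 29.4] at the 8-16 cell stage and between 1.48 and 3.04 RPM in the other libraries.

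The named members of single cow steps add both directions. From the 8-16 cell stage to the morula ZNF777 rose from 0.920 RPM [0.393 to 2.15] to 12.6 RPM [9.51 to 16.6], 13.7-fold. ZNF436 fell at that step from 33.7 to 1.54 RPM, 21.9-fold, and rose again to 18.8 RPM in the blastocyst, 12.2-fold. It thus dipped in 1 library, with intervals of [0.705 to 3.36] in the morula and [16.6 to 21.1] in the blastocyst. Such a dip, 2 or more below both ends, was found for 4 cow members, 3.2% against 4.46% of all genes, and for 0 of 148 pig members, where 3.61% of all genes had one. The other cow members with a dip were ZNF512, ZNF570 and ZNF420. ZNF668 fell at the last cow step, from 18.5 to 0.846 RPM, 21.8-fold.

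In pig most of the members that fell furthest kept more of their level through the 8-16 cell stage. ZNF436 (chromosome 6, 81250123 to 81261853) had 419 RPM [398 to 442] in the oocyte, 447 at the 2-4 cell stage, 384 at the 8-16 cell stage, 24.0 in the morula and 5.63 [3.68 to 8.61] in the blastocyst, a 74.5-fold fall. ZNF567 had 86.2, 75.4 and 57.8 RPM up to the 8-16 cell stage, 75 reads in the morula and 1.07 RPM in the blastocyst, an 80.3-fold fall of which 23.3-fold came at the last step. ZNF81, an X-linked gene with a KRAB domain, had 70.2, 102, 118, 9.32 and 1.07 RPM, and the row that overlaps it had 0 reads. ZNF648 went from 127 RPM in the oocyte to 94.4 at the 8-16 cell stage, 21.3 in the morula and 3 reads in the blastocyst. Pig ZNF2 had 78.5, 33.3, 39.5, 11.3 and 1.61 RPM, 48.8-fold lower at the end. At the step to the morula ZNF235 went down from 19.0 RPM to 0, at least 19.0-fold, and ZNF514 from 132 to 6.99 RPM, 18.8-fold. At the last step ZNF565 dropped to 1 read from 65.3 RPM, and ZNF300 to 0 reads from 22.3 RPM, at least 27.7-fold.

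Pig members that rose furthest started from 0 reads or close to it. ZNF331 (chromosome 6, 56594917 to 56611353), imprinted in human, had 0 reads in the oocyte, then 9.67, 39.5, 106 and 269 RPM [253 to 286], at least 303-fold higher at the blastocyst. Its intervals at neighbouring stages do not overlap at any step, so each library lay above the one before beyond counting error. ZNF322 had 0 reads, then 2.66, 8.53, 9.66 and 29.2 RPM. ZNF622, whose protein takes part in maturation of the large ribosomal subunit, had 0 reads in the oocyte, 9.67 RPM at the 2-4 cell stage and 19.3 RPM in the blastocyst, at least 21.7-fold above the oocyte. In cow the same symbol had 21.7 RPM in the oocyte and 24.7 RPM in the blastocyst, with overlapping intervals [18.0 to 26.2 and 22.2 to 27.4]. ZNF274, which recruits SETDB1 to the 3' ends of other zinc finger genes, had 1 read in the pig oocyte, then 1.21, 3.79, 14.3 and 31.1 RPM. ZNF219 had 0 reads in the oocyte, at most 1.67 RPM up to the morula and 18.5 RPM in the blastocyst. The row over ZNF219 on the other strand had at most 0.632 RPM, while the one over ZNF274 had 746 RPM in the blastocyst, so the reads of ZNF274 are uncertain.

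The remaining named pig members rose at single steps. From the 2-4 cell to the 8-16 cell stage ZNF384 rose from 0.967 to 14.2 RPM, 14.7-fold, and ZNF574 from 5.07 to 25.3 RPM, 4.98-fold. ZNF12 was the 1 member that fell there, from 18.6 RPM [14.9 to 23.3] to 3.16 RPM [1.72 to 5.81]; it was at 2.07 RPM in the oocyte and at 33.6 RPM in the morula, so its values go up and down between libraries. At the morula ZNF146 stood at 135 RPM, against 9.48 RPM at the 8-16 cell stage and 15.3 RPM in the blastocyst, and ZNF250 at 40.6 RPM against 2.21 RPM a stage earlier. ZNF146 and ZNF565 overlap each other on opposite strands, and both were highest in the morula. ZNF345 had 438 RPM [415 to 463] in the morula, 8.02 times its next highest library, and ZNF454 had 722 RPM there against 107 RPM at the 8-16 cell stage. At the last step ZNF346, which binds double-stranded RNA, rose from 2 reads to 38.6 RPM [32.8 to 45.4], and ZNF687 from 0 reads to 11.0 RPM, at least 11.0-fold. ZNF205 had 10.7 RPM in the blastocyst, 6.44 times its next highest library. Pig ZNF250 and the unnamed row that overlaps it on the other strand had the same value in all 5 libraries, so its reads cannot be given to either gene. ZNF346 and ZNF687 overlap UIMC1 and PI4KB, with 65.96 and 25.5 RPM in the blastocyst, and ZNF205 overlaps ZSCAN10, which had 0 reads. A transient rise as defined above was found for 12 pig members, 8.11% against 5.39% of all genes, and the middle stage was the morula for 11 of them and the 8-16 cell stage for ZNF703.

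Among the 87 symbols that were members in both species, 6 were higher and 13 lower in both from oocyte to blastocyst, 5 moved in opposite directions, 16 passed the threshold in cow only, 20 in pig only and 27 in neither. Of the 6279 symbols at 10 RPM or more in both tables, 12.7% were higher in both, 10.4% lower in both and 3.19% opposite. Among these 6279, 1056 passed the threshold in cow only, 1296 in pig only and 2276 in neither. The change had the same sign in 53 of the 87 ZNF symbols, 60.9%, and in 68.9% of all 6279 symbols. Spearman's rho between the cow and pig changes was 0.286 across the ZNF symbols and 0.53 across all symbols. Genes are not replicates and no p is given. Symbols were matched by name only, and both tables were scaled separately, so changes and not levels are set side by side. The highest stage was the same in both species for 27 of the 87 symbols, 31.0%, and for 32.1% of all shared symbols.

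**Figure D3:**
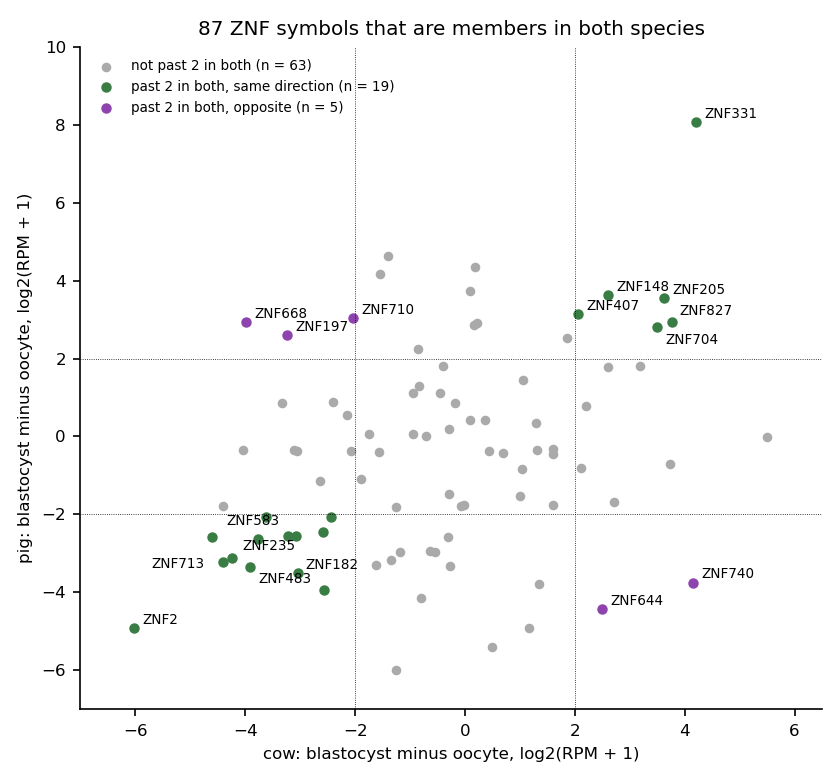
Change from oocyte to blastocyst in log2(RPM + 1) for the 87 ZNF symbols that are members in both species, cow on the horizontal and pig on the vertical axis, with dotted lines at 2 and -2; each point is 1 symbol and each change compares 2 libraries. ZNF331 lies far up at the right, ZNF2 at the lower left, and 5 symbols lie in the opposite corners.

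The 6 symbols higher in both were ZNF331, ZNF205, ZNF827, ZNF704, ZNF148 and ZNF407. ZNF148, a Krüppel-type factor that binds GC-rich promoters, had 12.2, 16.0, 198, 538 and 78.9 RPM in cow and 12.1, 25.4, 60.6, 291 and 162 RPM in pig. Both species had their highest ZNF148 value in the morula library, which in cow was 6.82-fold above the blastocyst and in pig 1.79-fold. ZNF407 had 33.5, 38.1, 473, 1148 and 142 RPM in cow and 49.1, 66.0, 206, 523 and 439 RPM in pig. Here too the morula library was the highest of each species. Cow ZNF331 had 0 reads in the oocyte, 1.35 RPM at the 2-4 cell stage, 19.9 at the 8-16 cell stage and 16.7 and 17.4 RPM afterwards. It levelled off in cow while the pig values kept rising to the blastocyst. ZNF205 was at 1 read in the cow oocyte and 0 in the pig oocyte, and at 13.9 and 10.7 RPM in the blastocysts. ZNF704 was at 0 and 2 reads in the oocytes and at 10.2 RPM in both blastocysts. ZNF827 went from 6.81 to 59.3 RPM in pig, 8.70-fold, by way of 26.1 RPM at the 2-4 cell stage.

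The 13 symbols lower in both were ZNF2, ZNF483, ZNF713, ZNF235, ZNF182, ZNF583, ZNF133, ZNF184, ZNF449, ZNF462, ZNF521, ZNF664 and ZNF706. In pig ZNF184, ZNF449, ZNF483, ZNF583 and ZNF664 overlap another row. ZNF235 had 79.7, 71.0, 5.89, 3.59 and 3.24 RPM in cow and 17.2, 17.9, 19.0, 0 and 1.07 RPM in pig. Cow ZNF235 fell between the 2-4 cell and 8-16 cell stages, a change of -3.38, while the pig values of those stages have overlapping intervals [14.2 to 22.4 and 14.7 to 24.4]. ZNF713 likewise went from 24.6 to 1.66 RPM at that cow step and from 45.7 to 44.9 RPM at the pig step of the same name. Pig ZNF713 came down to 11.0 RPM in the morula and 2.41 RPM in the blastocyst. ZNF483 had 69 reads in the cow oocyte and 31 in the pig oocyte, and 0 in both blastocysts, at least 66.2-fold and 11.4-fold lower. X-linked ZNF182 started at 53.3 RPM in cow and 74.9 RPM in pig and ended at 5.57 and 5.63 RPM, 9.58-fold and 13.3-fold lower. Cow ZNF583 ended at 11.6 RPM after 171 RPM in the oocyte, and pig ZNF583, which overlaps ZNF582 and an unnamed row, at 31.9 RPM after 204.

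**Figure D4:**
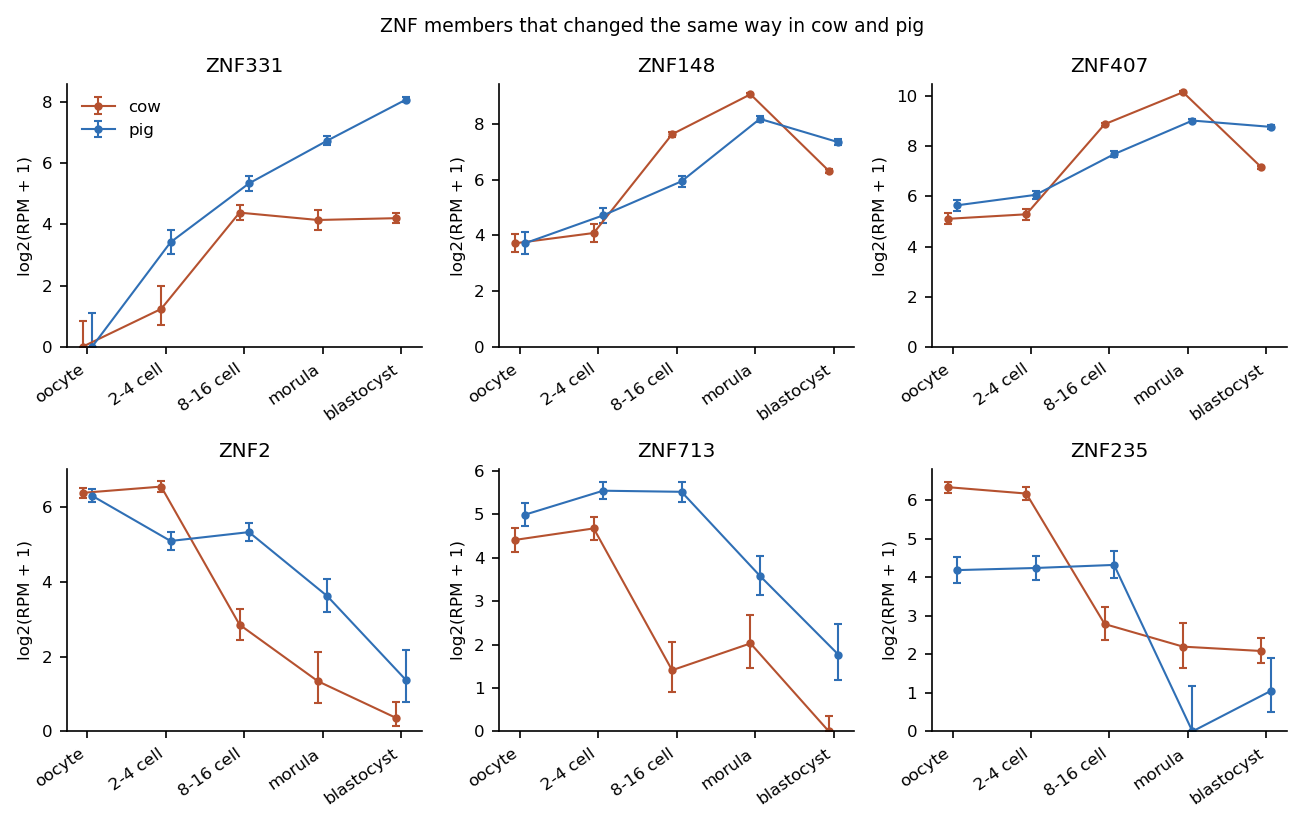
Level in log2(RPM + 1) by stage in cow and pig for 3 ZNF symbols that were higher (ZNF331, ZNF148, ZNF407) and 3 that were lower (ZNF2, ZNF713, ZNF235) at the blastocyst in both species; points are single libraries and bars 95% Wilson intervals from counting error. Cow ZNF2, ZNF713 and ZNF235 drop at the 8-16 cell stage; pig ZNF713 and ZNF235 hold their level until then, while pig ZNF2 already drops at the 2-4 cell stage, from 78.5 to 33.3 RPM; levels are not compared between the species.

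The 5 symbols that moved in opposite directions were ZNF740, ZNF668, ZNF197, ZNF644 and ZNF710. ZNF644, a partner of the H3K9 methyltransferases EHMT1 and EHMT2, had 10.1, 6.76, 53.6, 50.0 and 62.2 RPM in cow and 287, 234, 165, 29.0 and 12.3 RPM in pig. It rose 6.13-fold in cow and fell 23.3-fold in pig, and in neither species does its span overlap another row. Cow ZNF197 had 66.9 RPM in the oocyte and 6.21 RPM in the blastocyst; pig ZNF197 had 4.14 RPM, 78.6 in the morula and 30.0 RPM at the end. ZNF668 had 28.2 RPM in the cow oocyte and 0.846 RPM in the cow blastocyst, and 2 reads and 11.3 RPM in pig, where it overlaps ZNF646, with 15.7 and 2.95 RPM. ZNF710 fell from 7.71 to 1.13 RPM in cow. In pig it rose from 5.03 to 48.8 RPM, and IDH2, which overlaps its span on the other strand, had 7.40 and 56.3 RPM in the same libraries, so the pig rise cannot be given to ZNF710 alone. ZNF740 ended at 16.8 RPM in cow after 0 reads, and at 1.07 RPM in pig after 26.9; CSAD overlaps it in both tables. In pig CSAD had at most 0.888 RPM, but ITGB7, which overlaps ZNF740 too, went from 8.59 RPM in the oocyte to 0 reads in the blastocyst, so the pig fall is uncertain as well. A difference between the species was not tested, since each change compares 1 library with 1 library.

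**Figure D5:**
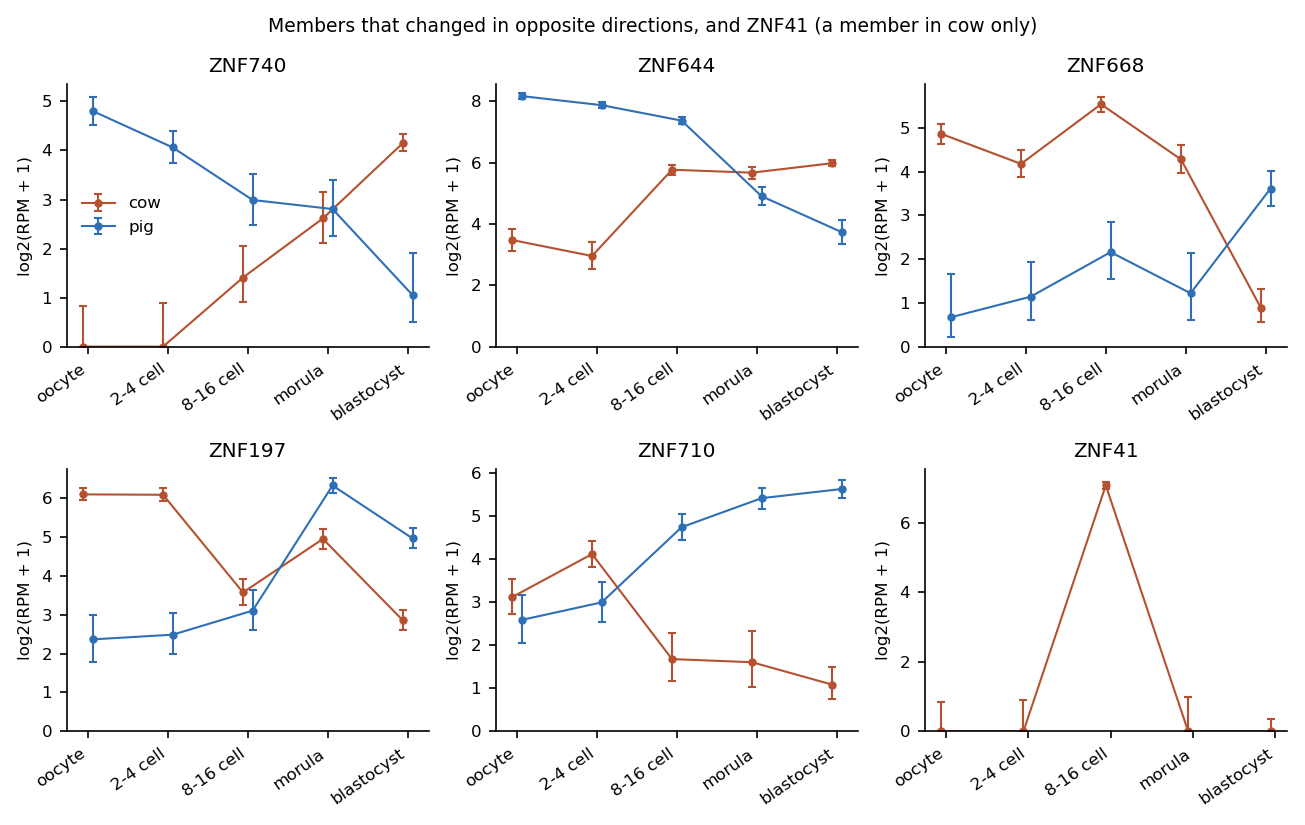
Level in log2(RPM + 1) by stage for the 5 ZNF symbols that moved in opposite directions between oocyte and blastocyst in cow and pig, and for ZNF41, a member in cow only; points are single libraries and bars 95% Wilson intervals. The cow and pig lines cross in each of the 5 panels, and ZNF41 has reads at the 8-16 cell stage only.

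A few members are known for work other than gene repression; those named here were chosen after their values were seen, and nothing is read from them about such members as a group. ZNF207, which loads the checkpoint protein BUB3 at kinetochores, had 117, 135, 297, 274 and 125 RPM in cow and 155, 182, 296, 419 and 209.7 RPM in pig, and passed the threshold at no step of either species. ZNF473, part of the machinery that trims histone mRNA ends, had 51.1 RPM in the cow oocyte and 14.6 RPM in the cow blastocyst, and in pig rose from 9.47 RPM in the oocyte to 69.3 RPM in the morula and dropped to 9.92 RPM. VRK3, which overlaps pig ZNF473 on the other strand, had 10.4, 73.6 and 14.2 RPM in those pig libraries, so that value too cannot be given to 1 gene. ZNF326, a subunit of a complex that links transcript elongation with splicing, went from 20.3 to 109.9 RPM between the cow 2-4 cell and 8-16 cell stages, 5.42-fold. In pig ZNF326 was lowest in the morula, at 16.0 RPM, and stood at 61.3 and 44.5 RPM in the oocyte and blastocyst. ZNF346 moved from 28.0 to 8.95 RPM in cow, short of the threshold, and rose 32.6-fold in pig, from 4 reads to 38.6 RPM.

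Of 15 cow genes for the machinery that KRAB zinc finger proteins recruit, 3 were higher at the blastocyst than in the oocyte and 0 lower, with a median change of 0.30. Of 12 pig genes 1 was higher and 0 lower, and the median was -0.93. The shares of all genes given above for this interval were 23.9% and 21.8% in cow and 28.7% and 22.2% in pig. They cover genes of 10 RPM or more, as 13 of the cow and 12 of the pig genes were; CHD3 and CBX3 in cow were not. TRIM28 had 21.5, 34.0, 16.8, 54.9 and 26.7 RPM in cow and 7.99, 4.35, 15.8, 31.3 and 113 RPM in pig, where a row overlaps it. SETDB1 had 125, 234, 76.8, 37.2 and 37.9 RPM in cow and 479.6, 220.4, 190.5, 66.3 and 124 RPM in pig, changes of -1.70 and -1.94 from oocyte to blastocyst. ATF7IP, which stabilises SETDB1, was transiently high in cow, with 24.5, 41.5, 428, 288 and 85.3 RPM. The cow genes past the threshold were HDAC1 (51.5 to 408 RPM), PPHLN1 (17.0 to 90.6 RPM) and CHD3 (0 reads to 7.69 RPM). In pig PPHLN1, a subunit of the HUSH complex, went the other way, from 524 to 189.8 RPM, a change of -1.46 that did not pass it. The cow row named CBX3, an HP1 protein, had at most 3 reads in any library. It spans only bases 264298 to 264843 of chromosome 1. Whether it measures the whole gene was not tested. The other genes of the list were ATF7IP, CBX1, CBX5, CHD4, HDAC2, MPHOSPH8, FAM208A, MORC2 and SMARCAD1, none past the threshold over this interval in either species. Cow HDAC1 and pig SETDB1, PPHLN1, CBX1, CBX5, CHD4 and FAM208A overlap another row, as pig TRIM28 does.

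ZNF members were concentrated on 1 chromosome in each species. Chromosome 18 held 36 of the 125 cow members, 28.8%, and 4.54% of all cow genes of 10 RPM or more. Chromosome 6 held 52 of the 148 pig members, 35.1%, and 9.88% of all genes. From oocyte to blastocyst the 36 cow chromosome 18 members counted 6 higher and 8 lower, with a median change of -0.70. The 52 pig chromosome 6 members counted 4 higher and 15 lower, with a median of -0.90. Of all genes of 10 RPM or more, 23.9% were higher and 21.8% lower in cow, and 28.7% and 22.2% in pig. Neighbouring members shared a peak stage about as often as other neighbouring genes, over few pairs and with no test. Of 17 neighbouring cow pairs within 100000 bases 5 had the same peak stage, 29.4%, against 29.7% of pairs with no ZNF member, and of 30 pig pairs 10 did, 33.3% against 30.9%. These pairs do not overlap; of 3 overlapping pairs of members in cow 2 had the same peak stage, and of 6 in pig 2. In cow, for example, ZNF613, ZNF432, ZNF614 and ZNF350 follow each other on chromosome 18 and had their highest value in the blastocyst, at the 8-16 cell stage, in the morula and again in the blastocyst. The placement of multiply matching reads is not given in the sources used here. Near-identical fingers of neighbouring genes can share reads, so values within clusters are uncertain.

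Zinc finger genes under other names had their own counts. Of 21 ZBTB genes at 10 RPM or more in cow, whose proteins carry a BTB domain, 1 was higher and 7 lower at the blastocyst than in the oocyte, with a median change of -1.43. Of 19 such pig genes 3 rose and 3 fell, their median change was 0.22, and 12 of the 19 had their highest value in the morula. ZFP genes had medians of 0.92 over 9 genes in cow and 0.71 over 12 in pig. ZSCAN genes, whose proteins carry a SCAN domain, counted 0 higher and 2 lower of 6 in cow, with a median of -1.12, and 0 higher and 3 lower of 3 in pig, with a median of -2.92. ZKSCAN genes, with both a KRAB and a SCAN domain, counted 0 higher and 2 lower of 2 in cow (median -3.22) and 0 higher and 2 lower of 3 in pig (median -2.56). Over the same interval 23.9% of all cow genes of 10 RPM or more were higher and 21.8% lower. In pig these shares were 28.7% and 22.2%, and 25.5% of all such pig genes peaked in the morula. The ZSCAN and ZKSCAN sets hold at most 6 genes each. These families share no rows with the ZNF members, and no difference from the members or from all genes was tested.

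The level rule sits in a continuous range of values. The cow members closest to it were ZNF704 with a highest value of 10.2 RPM and ZNF598 with 10.4 RPM, and the symbols just under it were ZNF572 with 9.91 RPM and ZNF408 with 9.31 RPM. In pig ZNF526 and ZNF549 had 10.1 RPM each, and ZNF239 and ZNF674 had 9.79 and 9.66 RPM. Of the 38 cow members that were not members in pig, 16 were present there under 10 RPM, and of the 61 such pig members 26 were present in cow under 10 RPM.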

How the data were processed

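RNA sequencing of 10 libraries, 1 per stage and species, was used. Per the labels' protocols, low amounts of RNA were amplified and libraries had 8 PCR cycles. The submitters' processing notes name Trim Galore 0.6.4, HISAT2 2.1.0 and the builds UMD3.1, a cattle assembly, and Sscrofa11.1, a pig assembly, on which coordinates are given as in the tables. The counting tool, the annotation and the use of strand are not given in the sources used here. The deposited values are log2 RPM by stage, not divided by gene length: in every column 100% of the values above the lowest are whole multiples of 1 read (tolerance 0.01 read, or 0.001% of large counts), and 0 reads is written as 0.9 of a read. Reads and totals were recovered from this; 0 was used for 0 reads.

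Changes are differences of log2(RPM + 1) with a pseudocount of 1. No tests were run, since each group has 1 library. The background is every symbol of 10 RPM or more in a stage of that table, members included. A fold against 0 reads uses a floor of 3 reads per library; none is given against 1 to 3 reads. Spans of 15 of 125 cow and 43 of 148 pig members overlap another row, against 9.37% and 35.7% of all such symbols. The members, lists and comparisons were chosen with earlier results of these data known. Named members are those with the most reads, the largest changes at each step and over the course, the largest ratio of the peak to the next stage, those called in both species, and those next to the level rule. The lists were 12 oocyte, 12 blastocyst and 12 cumulus markers and 16 KRAB cofactors. No sequences are shown, and grouping by protein domain was not done. The calculation was tested on simulated data. Python 3.11.15, numpy 2.4.6, pandas 2.3.3, scipy 1.17.1 and matplotlib 3.10.9 were used. Alternatives of pseudocount, threshold, scaling, depth, level rule and overlap were run.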

Additional observations from a re-analysis of the deposited data

Results flagged for a closer look

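Of the 87 shared ZNF symbols, 5 moved past the threshold in opposite directions in cow and pig from oocyte to blastocyst and were flagged. Of all 6279 shared symbols 3.19% did so. The difference between the species was not tested, and each change compares 1 library with 1 library. ZNF197 changed by -3.24 in cow and 2.59 in pig. ZNF644 changed by 2.50 and -4.43, ZNF668 by -3.98 and 2.94, ZNF710 by -2.03 and 3.05, and ZNF740 by 4.15 and -3.75. With a pseudocount of 5, 2 shared symbols were past the threshold in opposite directions. Pig ZNF668, ZNF710 and ZNF740 and cow ZNF740 overlap another row, and ZNF197 and ZNF644 overlap none in either species.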

How the results depend on the processing

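No paired analysis was possible because each group has 1 library, and for the same reason no replicate could be left out. Of the alternative values of counts, 136 stayed within 1.5 times the main count and 35 did not. Of the alternative values of the named members' changes, 372 stayed within the range spanned by the 95% intervals of both libraries and 114 did not, and no change past the threshold turned its sign. The threshold and the pseudocount moved the others most. At a threshold of 1 the members changed at the 4 consecutive cow steps were 11, 82, 50 and 59, and 85 over the whole cow course. In pig they were 30, 35, 85 and 98. Over all settings the changed share of all genes was at most 10.5%, 63.3%, 42.2%, 55.3% and 70.8% for these cow intervals. For the 4 pig steps it was at most 23.8%, 21.4%, 58.0% and 59.3%. With a pseudocount of 5 the members changed were 20, 6 and 7 at the last 3 cow steps, 32 over the cow course, and 0, 0, 15 and 19 in pig. A pseudocount of 0.5 gave 1 for the first cow step and 8 for the first pig step, where median scaling gave 8 and members at 20 RPM or more 3. The shared symbols higher, lower and opposite were 3, 7 and 2 with a pseudocount of 5, and 10, 21 and 11 at a threshold of 1. Peaks in the cow oocyte were 30 with median scaling. With members at 20 RPM or more, 15 cow members peaked at the 8-16 cell stage and 8 in the blastocyst, and 16 pig members in the blastocyst. Pig 2-4 cell peaks were 43 with median scaling and 40 with quantile normalisation. With members that overlap no other row, 12 pig members peaked at the 8-16 cell stage and 14 in the blastocyst. The cause was not tested, except that the level and overlap rules leave fewer members. Grouping by protein domain was not run. Values under about 1 RPM rest on a few reads.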
